A study of Mus musculus with 31 samples.

Results

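The mitochondrial enzymes of the tricarboxylic acid (TCA) cycle are described here by 9 genes, Cs, Idh2, Idh3a, Idh3b, Idh3g, Ogdh, Suclg1, Sucla2 and Mdh2. They were chosen by name and read from the rows whose Ensembl identifiers GENCODE pairs with those symbols. All 9 were found among the 35275 gene identifiers counted in the insulin experiment and among the 54532 counted in the ERRα3SA experiment, and all 9 passed the filter on low counts in every comparison. RNA was sequenced from 31 tissue samples of male C57BL/6N mice aged 2 to 3 months and kept on a standard diet. In the insulin experiment, WT and ERRα-/- mice were fasted for 12 h, injected with saline or with 1 unit/kg insulin, and their livers were collected 4 h later. It holds 4 livers of WT mice given saline, 4 of WT mice given insulin, 4 of ERRα-/- mice given saline and 3 of ERRα-/- mice given insulin. ERRα-/- mice lack the nuclear receptor ERRα, encoded by Esrra, throughout the body. In the ERRα3SA experiment, the livers and skeletal muscles of mice with a CRISPR/Cas9 knock-in that changes 3 serines of ERRα to alanine were compared with those of WT littermates, 4 samples per tissue and genotype. The study housed its mice with free access to this diet, and no fast or injection is described for the ERRα3SA mice and their littermates in the sources used here. Total counts ranged from 35871419 to 48317108 per sample in the insulin experiment and from 20481405 to 33412022 in the ERRα3SA experiment.

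The TCA cycle oxidises acetyl groups to carbon dioxide in the mitochondrial matrix and hands the electrons to the respiratory chain. In liver it also supplies carbon skeletons for gluconeogenesis, lipid synthesis and amino acid metabolism, while in skeletal muscle it mainly serves the energy demand of contraction. ERRα is known as a transcriptional activator of many genes of mitochondrial energy metabolism.

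Levels are given as CPM (counts divided by library size) on the TMM scale, with replicates in order of their number. The 2 experiments were normalised separately, so levels set side by side across them are not tested. Esrra served as a check of the labels. It stood at 32.3, 51.3, 42.7 and 40.5 CPM in WT livers given saline and at 53.7, 96.5, 56.1 and 59.0 CPM in WT livers given insulin. In ERRα-/- livers it stood at 1.63, 0.703, 1.15 and 1.04 CPM with saline and at 0.833, 0.576 and 0.298 CPM with insulin. Every ERRα-/- liver lay below every WT liver. In the ERRα3SA experiment, where the gene is edited and not removed, Esrra was at 27.7, 27.1, 28.2 and 29.5 CPM in WT livers and 29.4, 25.4, 21.1 and 19.2 CPM in ERRα3SA livers. In muscle it was at 90.2, 82.7, 67.0 and 78.1 CPM in WT and 24.3, 133, 127 and 94.6 CPM in ERRα3SA mice, where replicate 1 was lowest. The 5 hepatocyte markers (Alb, Apoa1, Ttr, Cps1 and Serpina1c) summed to 53441 CPM or more in each liver and to at most 1.26 CPM in each muscle, and the 5 muscle fibre markers (Ckm, Acta1, Myh4, Mylpf and Tnnt3) to 79878 CPM or more in each muscle.

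Several libraries stood apart from their group. In WT livers given insulin, the share of counts from the mitochondrial genome was 3.88, 1.88, 4.05 and 4.17%, lowest in replicate 2, which also had the highest Esrra and 7 of the 9 enzymes (all but Cs and Ogdh) of its group. Replicate 3 of the same group had a summed level of muscle fibre markers of 69.8 CPM against 0.830 to 3.21 CPM in the other 3, led by Acta1, with none of the 5 markers at 0. In ERRα-/- livers given saline the mitochondrial share was 3.17, 3.21, 3.91 and 3.16%, highest in replicate 3. Replicate 4 of the ERRα3SA livers had a hepatocyte marker sum of 53441 CPM against 87044 to 100390.0 CPM in the other 3. In ERRα3SA muscle, replicate 1 had 19.3% of counts from the mitochondrial genome against 9.15 to 9.85% in the others, and a muscle fibre marker sum of 178472 CPM against 79878 to 108344 CPM. Myh4 led that sum, at 104328 CPM against 32881 to 46343.5 CPM in the others. Ckm, Mylpf and Tnnt3 were also highest in replicate 1, while Acta1 (25119 CPM) was below replicates 2 and 3. ERRα3SA muscle replicate 4 had a macrophage marker sum of 38.8 CPM, led by Cd68 and with Clec4f at 0, against 6.71 to 6.96 CPM, and a fibroblast marker sum of 2655 CPM, led by Col3a1, against 974 to 1478 CPM. Col1a1 (828 CPM) was also highest in that muscle, while Dcn (377 CPM) and Reln (5.76 CPM) were the lowest of the group and Lrat was at 0.0320 CPM. Counts and medians of the 9 enzymes that moved by over 1.5 times without one of these libraries are also given without it. Fold changes and medians of the other gene lists are given with all samples only. The part these features had in any result was not tested. In these whole-tissue samples, fewer cells of a type and less RNA per cell cannot be told apart.

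DEGs are genes that differ 1.2-fold or more, up or down, with an unadjusted p under 0.05 in the quasi-likelihood test of edgeR. Both thresholds are those of the study, which applied them with DESeq2. Adjusted p-values are Benjamini-Hochberg values over all genes tested in the comparison. With insulin in WT livers, Cs and Idh3a rose, so that 2 of 9 enzymes were DEGs, against 17.2% of the 13463 genes tested. In ERRα-/- livers, insulin was followed by higher Idh3a and lower Idh2, again 2 of 9, against 17.2% of 13684 genes. Without ERRα, Idh3a, Idh3b and Ogdh were lower in livers given saline, 3 of 9 enzymes, against 11.3% of 13481 genes called in either direction and 5.3% called lower. In livers given insulin, Idh3a, Idh3b, Mdh2 and Suclg1 were lower without ERRα, 4 of 9, against 9.99% of 13665 genes called in either direction and 5.42% called lower. Scaled by total counts alone, 7 of 9 were lower in that comparison, where 1195 of all genes were then called lower and 295 higher and the median of all genes was -0.11. None of the 9 had an adjusted p under 0.05 by edgeR in these 4 comparisons, where 3.16% (insulin, WT), 2.91% (insulin, ERRα-/-), 0.0816% (genotype, saline) and 0.0585% (genotype, insulin) of all genes had one. These shares move with single livers, the 425 genes of the first falling to 105 without WT saline replicate 4 and the 398 of the next to 42 without ERRα-/- insulin replicate 2, while the 11 became 47 without ERRα-/- saline replicate 2 and the 8 became 48 without WT insulin replicate 2. DESeq2 gave 0, 0, 2 and 1 of the 9 an adjusted p under 0.05, namely Idh3b and Ogdh with saline and Idh3b with insulin.

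The 4 comparisons share samples pairwise, and their values for the enzymes are set side by side without a test between them. The median log2 fold change of the 9 was 0.24 with insulin in WT livers, where the median of all genes was 0.0036, and 8 of 9 values were above 0. Without WT insulin replicate 2 that median was 0.12, with 7 of 9 above 0. The median with insulin in ERRα-/- livers was 0.052, against -0.022 for all genes, with 7 of 9 above 0, and it was 0.095 without ERRα-/- saline replicate 3. ERRα-/- against WT gave a median of -0.13 with saline (all genes 0.0037), with 8 of 9 values below 0 and Idh2 the exception. With insulin it gave -0.27 (all genes -0.021), with 9 of 9 below 0. The genotype by insulin interaction, the insulin effect in WT minus that in ERRα-/- livers, made 0 of the 9 a DEG by edgeR or by DESeq2, and 0 of the 9 had an unadjusted p under 0.05 in either, against 8.79% of 14670 genes called. Its median over the 9 was 0.19 (all genes 0.020), or 0.12 without WT insulin replicate 2, and its largest value was that of Idh2, 0.39 ± 0.21 (SE, adjusted p = 0.605). An insulin effect called in one genotype and not in the other was therefore not shown to differ for any of the 9. The interaction called Mdh2 when WT insulin replicate 3 was left out (0.34 ± 0.14 SE, adjusted p = 0.393). It called Idh2 when WT saline replicate 4 (0.48) or WT insulin replicate 1 (0.50) was left out. In the same order, these fits called 1569 of 14545, 1191 of 14556 and 1381 of 14563 genes.

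**Figure D1:**
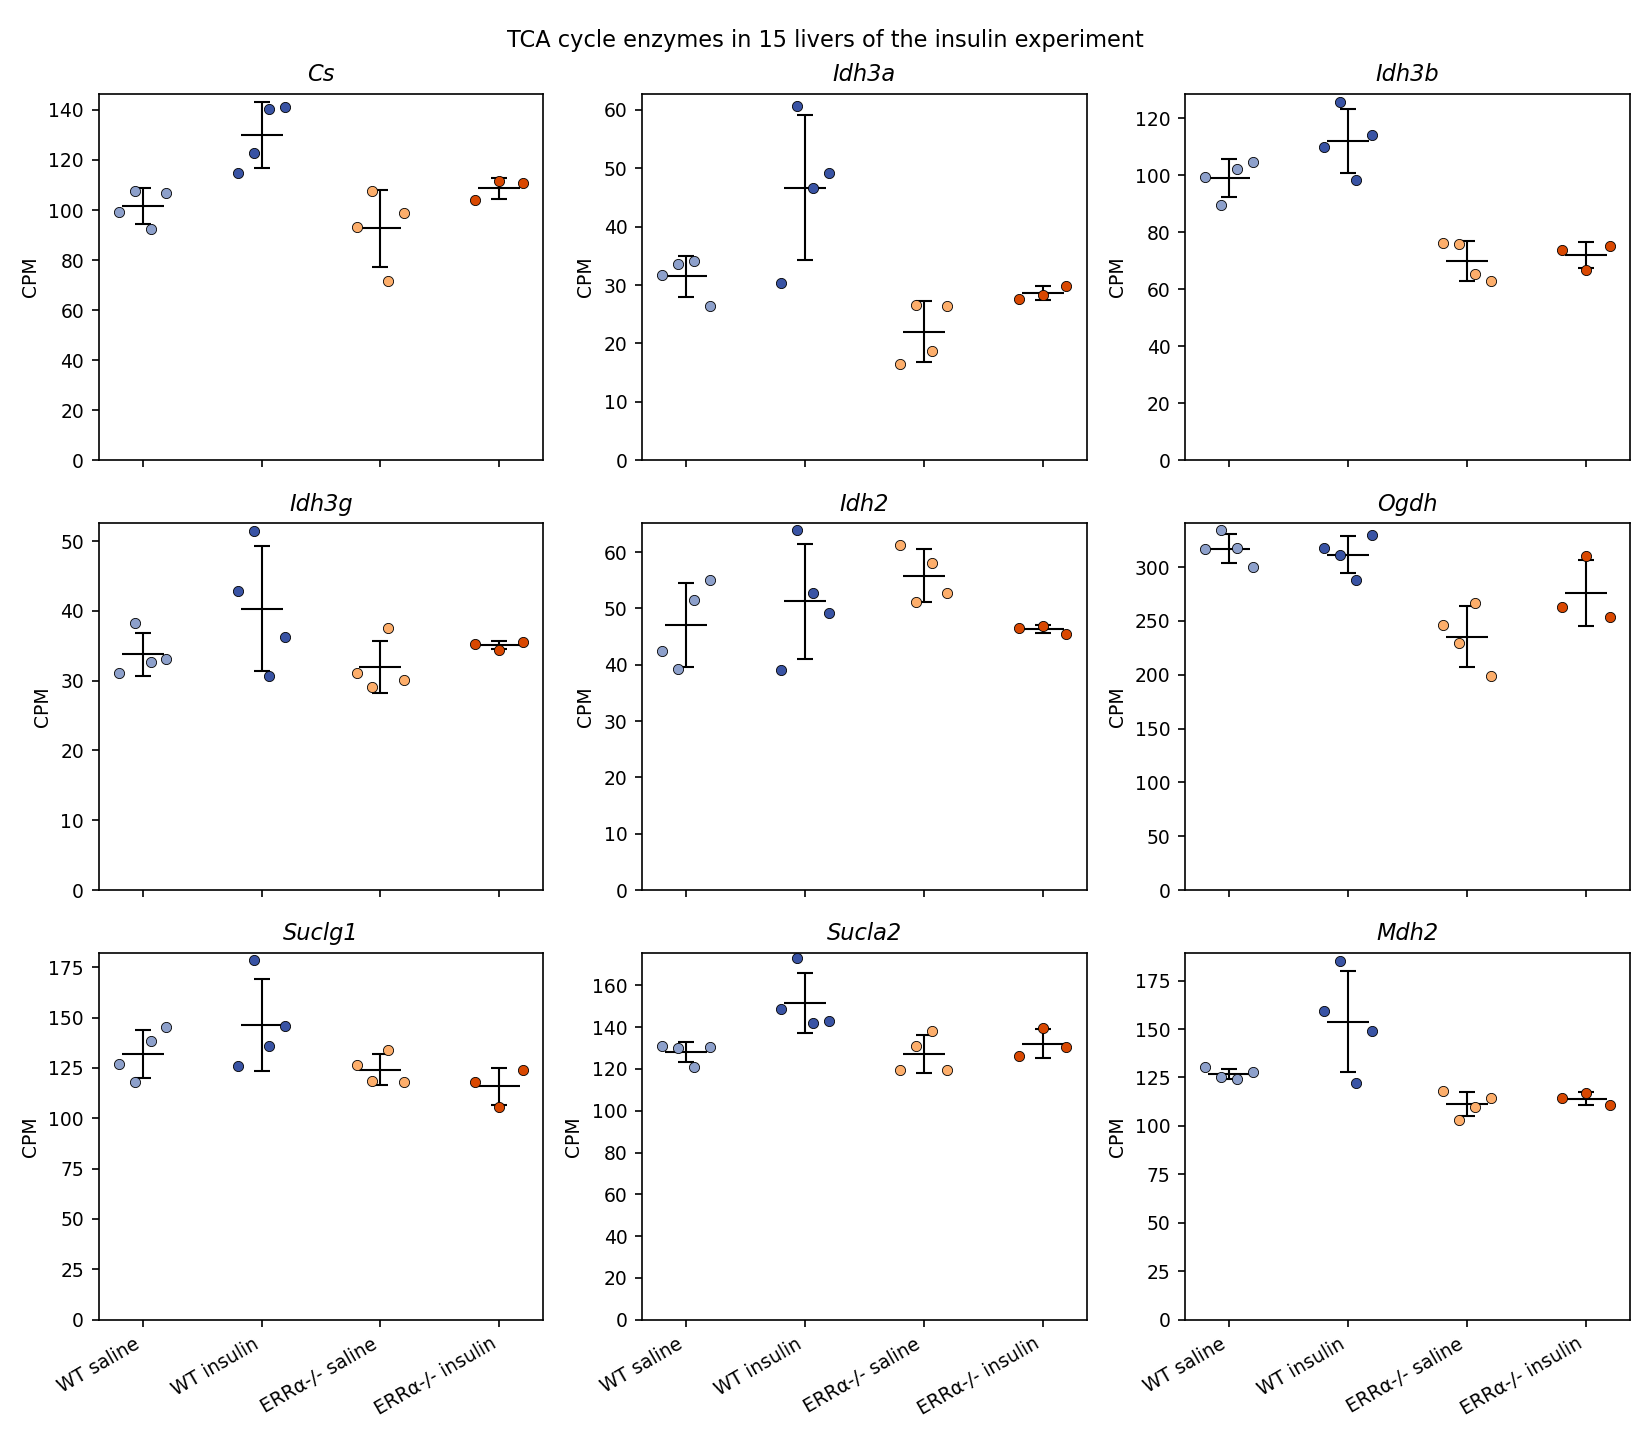
Each point is the level of an enzyme gene in 1 of the 15 livers of the insulin experiment (CPM, axes from 0), with the mean as a bar and the SD as whiskers for WT saline, WT insulin, ERRα-/- saline (n = 4 each) and ERRα-/- insulin (n = 3). Idh3b ranges from 62.8 to 76.3 CPM in ERRα-/- livers given saline and from 89.8 to 105 CPM in WT livers given saline, with no overlap.

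Citrate synthase, encoded by Cs (ENSMUSG00000005683, chr10:128337734-128362479, plus strand), opens the cycle by joining acetyl-CoA to oxaloacetate. Its promoter and those of Idh3b, Ogdh, Suclg1 and Mdh2, each called in at least 1 comparison, are printed from 250 bases before to 50 bases after the transcription start, from RefSeq on GRCm38.p6 and on the strand of the gene, in lower case with any motif found in capitals. Motifs searched on both strands were TCAAGGTCA, the extended element bound by ERR receptors, AAGGTCA, its core, which lies within the extended element, and GCGCATGC, the core of the NRF1 element. Of 32851 promoter windows of this length, 0.423% held the extended element, 4.72% the ERR core and 2.71% the NRF1 core. Windows were found for 8 of the 9 enzymes (13 windows), Idh3a having none, and only windows of Ogdh, 3 of its 6, held a match. A match is a description of letters, and a window without one says nothing about the factor.
Cs chr10:128337477-128337776, plus strand: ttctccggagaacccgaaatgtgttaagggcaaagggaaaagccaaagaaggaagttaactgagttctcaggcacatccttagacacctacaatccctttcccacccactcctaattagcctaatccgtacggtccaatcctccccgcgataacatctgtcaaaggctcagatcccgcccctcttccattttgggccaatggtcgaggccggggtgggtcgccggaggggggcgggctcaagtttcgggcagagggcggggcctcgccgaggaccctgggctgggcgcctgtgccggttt

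Cs stood at 99.3, 108, 92.6 and 107 CPM in WT livers given saline and at 115, 123, 140.5 and 141 CPM with insulin. Every liver given insulin was above every liver given saline. Cs rose 1.28-fold, a log2 fold change of 0.35 ± 0.12 (SE, adjusted p = 0.140). Cs in ERRα-/- livers was at 93.1, 108, 71.6 and 98.7 CPM with saline and 104, 112 and 111 CPM with insulin, groups that overlap, with replicate 3 of the saline group lowest. Its log2 fold change there was 0.22 ± 0.13 (SE, adjusted p = 0.425). Cs was called higher there when ERRα-/- saline replicate 2 was left out (0.31). With 1 liver left out, the value ranged from 0.12 to 0.31. Between genotypes the values were -0.13 ± 0.13 (SE) with saline and -0.27 ± 0.13 (SE) with insulin, neither of them called. With insulin Cs was called lower when WT insulin replicate 1 (-0.32) or replicate 2 (-0.29) was left out, and when scaled by total counts alone (-0.36). With insulin, all 3 ERRα-/- livers were nonetheless below all 4 WT livers. The related gene Csl was at 0 in every liver and WT muscle and at most at 0.0320 CPM in any library.

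Isocitrate is oxidised to 2-oxoglutarate by 2 mitochondrial enzymes. The NAD-dependent enzyme is built from the catalytic subunit of Idh3a (ENSMUSG00000032279, chr9:54586334-54604661, plus strand) and from the subunits of Idh3b (ENSMUSG00000027406, chr2:130279309-130284547, minus strand) and Idh3g (ENSMUSG00000002010, chrX:73778963-73786897, minus strand). The NADP-dependent enzyme is the product of Idh2 (ENSMUSG00000030541, chr7:80094846-80115392, minus strand). Idh3b shares 5 of its 3422 exon bases with Nop56 on the opposite strand, and whether counting used strand is not given in the sources used here. The Idh3b promoter is shown because Idh3b was lower in every ERRα-/- liver.
Idh3b chr2:130284402-130284701, minus strand: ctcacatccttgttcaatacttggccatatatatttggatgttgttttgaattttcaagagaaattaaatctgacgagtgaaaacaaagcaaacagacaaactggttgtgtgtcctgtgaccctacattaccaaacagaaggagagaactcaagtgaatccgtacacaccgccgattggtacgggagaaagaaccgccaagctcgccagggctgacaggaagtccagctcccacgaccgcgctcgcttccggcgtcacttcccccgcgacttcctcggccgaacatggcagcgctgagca

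Idh3a was at 31.7, 33.5, 34.2 and 26.5 CPM in WT livers given saline and at 30.4, 60.6, 46.5 and 49.2 CPM with insulin. Replicate 1 of the insulin group lay within the saline range and the other 3 above it. Idh3a rose 1.48-fold with insulin in WT livers, a log2 fold change of 0.57 ± 0.19 (SE, adjusted p = 0.148). ERRα-/- livers had 16.5, 26.5, 18.6 and 26.4 CPM with saline and 27.7, 28.3 and 29.9 CPM with insulin, and all 3 livers given insulin were above all 4 given saline. There its log2 fold change was 0.38 ± 0.17 (SE, adjusted p = 0.280). The call was kept in 4 of 7 alternative fits and in 2 of 7 fits that left out 1 liver, and without ERRα-/- saline replicate 3 the value was 0.31 ± 0.17 (SE, adjusted p = 0.392). The interaction was 0.19 ± 0.27 (SE, adjusted p = 0.871). Against WT, Idh3a was 1.43-fold lower in ERRα-/- livers given saline, a log2 fold change of -0.52 ± 0.16 (SE, adjusted p = 0.252), where only ERRα-/- replicate 2 reached the lowest WT liver, WT replicate 4. With insulin it was 1.64-fold lower, a log2 fold change of -0.72 ± 0.20 (SE, adjusted p = 0.258), with no overlap between groups.

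Idh3b was at 99.5, 89.8, 102 and 105 CPM in WT livers given saline and at 110.1, 126, 98.5 and 114 CPM with insulin. Without ERRα it was at 76.3, 75.9, 65.4 and 62.8 CPM with saline and 73.8, 66.7 and 75.4 CPM with insulin. All 7 ERRα-/- livers were below all 8 WT livers. Idh3b fell by 0.50 on the log2 scale with saline (1.41-fold lower, SE 0.10, adjusted p = 0.145). With insulin the fall was 1.57-fold, a log2 fold change of -0.65 ± 0.13 (SE, adjusted p = 0.164). DESeq2 gave these differences adjusted p-values of 0.00611 with saline and 0.00468 with insulin. The insulin effect on Idh3b was 0.18 ± 0.12 (SE) in WT and 0.034 ± 0.11 (SE) in ERRα-/- livers, with no call in either.

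The third subunit gene, Idh3g, was at 31.03, 38.2, 32.7 and 33.1 CPM in WT livers given saline and 42.9, 51.4, 30.7 and 36.2 CPM with insulin. Idh3g in ERRα-/- livers was at 31.1, 29.1, 37.5 and 30.1 CPM with saline and 35.3, 34.4 and 35.5 CPM with insulin. The groups overlap in each of the 4 comparisons, and none was called. Idh3g was called higher with insulin in WT livers only when replicate 3, the liver with muscle fibre transcripts, was left out (0.37 ± 0.15 SE, adjusted p = 0.230). The full set of samples gave 0.26 ± 0.16 (SE, adjusted p = 0.449).

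The gene of the NADP-dependent enzyme, Idh2, was at 42.4, 39.3, 51.6 and 54.9 CPM in WT livers given saline and 39.1, 63.9, 52.7 and 49.2 CPM with insulin, with groups that overlap and a log2 fold change of 0.12 ± 0.17 (SE, adjusted p = 0.760). ERRα-/- livers had 61.3, 51.1, 58.1 and 52.8 CPM with saline and 46.5, 46.8 and 45.5 CPM with insulin. All 3 livers given insulin were below all 4 given saline, and Idh2 fell by 0.27 on the log2 scale (SE 0.10, adjusted p = 0.183). This call was kept in 5 of 7 alternative fits and in 3 of 7 fits that left out 1 liver, and the value without ERRα-/- saline replicate 3 was -0.25 ± 0.11 (SE, adjusted p = 0.246). Idh2 was also the only member whose genotype difference with saline was above 0, at 0.25 ± 0.13 (SE, adjusted p = 0.460). That difference was not called with all livers, but was called without WT saline replicate 4 (0.33). With insulin the difference was -0.16 ± 0.16 (SE).

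The 2-oxoglutarate dehydrogenase complex makes succinyl-CoA, and its E1 subunit is encoded by Ogdh (ENSMUSG00000020456, chr11:6291633-6356642, plus strand). RefSeq lists 6 start windows for Ogdh. The first one shown holds the ERR core on the other strand from base -5 to base 2 of its transcription start. The next holds the NRF1 core from base -15 to base -8. Another window, chr11:6292329-6292628, overlaps the latter and holds the same NRF1 site, from base -36 to base -29.
Ogdh chr11:6291920-6292219, plus strand: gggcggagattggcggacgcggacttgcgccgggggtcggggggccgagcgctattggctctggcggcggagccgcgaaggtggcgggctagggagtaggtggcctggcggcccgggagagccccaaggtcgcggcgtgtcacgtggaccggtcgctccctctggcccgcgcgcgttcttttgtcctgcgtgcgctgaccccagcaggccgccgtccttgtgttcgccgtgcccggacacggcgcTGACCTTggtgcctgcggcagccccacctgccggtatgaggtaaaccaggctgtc
Ogdh chr11:6292308-6292607, plus strand: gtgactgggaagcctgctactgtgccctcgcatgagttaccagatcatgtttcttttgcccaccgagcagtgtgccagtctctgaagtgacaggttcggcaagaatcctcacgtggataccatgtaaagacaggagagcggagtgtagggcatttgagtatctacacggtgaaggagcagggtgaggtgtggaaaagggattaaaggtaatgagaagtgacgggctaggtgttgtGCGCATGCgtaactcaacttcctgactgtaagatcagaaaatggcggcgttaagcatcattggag

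Ogdh was at 317, 334, 318 and 300.4 CPM in WT livers given saline and 317, 311, 288 and 330.1 CPM with insulin. Without ERRα it was at 246, 229.5, 267 and 199 CPM with saline and 263, 310.5 and 254 CPM with insulin. All 4 ERRα-/- livers given saline were below all 4 WT livers given saline, while with insulin the ERRα-/- replicate 2 lay within the WT range. Ogdh fell by 0.43 on the log2 scale without ERRα in livers given saline (1.35-fold lower, SE 0.11, adjusted p = 0.195), where DESeq2 gave an adjusted p of 0.0292. With insulin the difference was -0.19 ± 0.13 (SE, adjusted p = 0.675), not called. The insulin effect was -0.025 ± 0.11 (SE) in WT and 0.22 ± 0.13 (SE) in ERRα-/- livers. The interaction, -0.25 ± 0.16 (SE, adjusted p = 0.666), was the only one of the 9 below 0. Its paralog Ogdhl was at most at 0.227 CPM in any liver.

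Succinate-CoA ligase conserves the energy of succinyl-CoA in a nucleotide triphosphate. Its alpha subunit comes from Suclg1 (ENSMUSG00000052738, chr6:73248382-73276911, plus strand), and the beta subunit of the ADP-forming enzyme from Sucla2 (ENSMUSG00000022110, chr14:73525319-73596142, plus strand). The beta subunit of the GDP-forming enzyme, Suclg2, is counted among the other TCA cycle genes. The promoter of Suclg1, called lower without ERRα in livers given insulin, held none of the motifs.
Suclg1 chr6:73248255-73248554, plus strand: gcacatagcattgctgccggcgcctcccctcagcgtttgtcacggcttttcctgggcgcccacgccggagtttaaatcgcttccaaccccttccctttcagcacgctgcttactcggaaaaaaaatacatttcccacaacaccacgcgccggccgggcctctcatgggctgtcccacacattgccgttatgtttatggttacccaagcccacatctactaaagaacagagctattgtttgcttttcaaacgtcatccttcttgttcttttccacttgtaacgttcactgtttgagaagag

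Suclg1 was at 127, 118, 138 and 145 CPM in WT livers given saline and 126, 179, 136 and 146 CPM with insulin. ERRα-/- livers had 126, 118, 134 and 118 CPM with saline and 118, 106 and 124 CPM with insulin. With insulin, all 3 ERRα-/- livers were below all 4 WT livers. Suclg1 was 1.27-fold lower there, a log2 fold change of -0.35 ± 0.15 (SE, adjusted p = 0.468). The call was kept in 6 of 7 alternative fits and in 2 of 7 fits that left out 1 liver, and without WT insulin replicate 2, the liver with the highest Suclg1, the value was -0.24 ± 0.11 (SE, adjusted p = 0.416). With saline the genotype difference was -0.089 ± 0.10 (SE).

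Sucla2 was at 131, 130.1, 121 and 131 CPM in WT livers given saline and 149, 173, 142 and 143 CPM with insulin, and every liver given insulin was above every liver given saline. The log2 fold change, 0.24 ± 0.11 (SE, adjusted p = 0.284), passed the p of the DEG criterion but was 1.18-fold, under 1.2-fold. ERRα-/- livers had 119.7, 131, 138 and 119.7 CPM with saline and 126, 139.8 and 131 CPM with insulin, with groups that overlap. With insulin the ERRα-/- livers were all below the WT livers, at -0.21 ± 0.13 (SE, adjusted p = 0.628), which was not called.

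Malate dehydrogenase of the mitochondrion, the product of Mdh2 (ENSMUSG00000019179, chr5:135778480-135790398, plus strand), closes the cycle by regenerating oxaloacetate. Its promoter is shown since Mdh2 was lower in every ERRα-/- liver given saline than in the WT livers given saline, and called lower with insulin.
Mdh2 chr5:135778399-135778698, plus strand: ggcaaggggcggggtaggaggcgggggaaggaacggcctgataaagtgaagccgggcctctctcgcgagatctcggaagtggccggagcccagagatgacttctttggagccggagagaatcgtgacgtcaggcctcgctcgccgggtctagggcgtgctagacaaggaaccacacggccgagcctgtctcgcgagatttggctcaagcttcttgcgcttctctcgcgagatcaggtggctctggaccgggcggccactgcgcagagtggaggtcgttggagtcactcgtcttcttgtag

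Mdh2 was at 130.2, 125, 124 and 128 CPM in WT livers given saline and 159, 185, 122 and 149 CPM with insulin. Replicate 2 was highest, and replicate 3 lay below all livers given saline. With insulin the log2 fold change in WT livers was 0.28 ± 0.13 (SE, adjusted p = 0.307). Without replicate 3 it was 0.38 ± 0.12 (SE, adjusted p = 0.144) and Mdh2 was called, as it was with all groups in one fit (0.28, adjusted p = 0.162). ERRα-/- livers had 118, 103, 109.9 and 114 CPM with saline and 114, 117 and 111 CPM with insulin, all below every WT liver. Mdh2 was 1.36-fold lower with insulin, a log2 fold change of -0.44 ± 0.15 (SE, adjusted p = 0.353), and -0.19 ± 0.089 (SE) with saline, not called. The call with insulin was lost without ERRα-/- insulin replicate 4 (-0.41, adjusted p = 0.735).

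Leaving out WT insulin replicate 3, the liver with muscle fibre transcripts, raised the count called with insulin in WT livers from 2 to 5 of 9 (Cs, Idh3a, Idh3g, Mdh2 and Sucla2), all higher, where 2511 of 13745 genes were called, 1232 of them higher. Leaving out replicate 2, with the lowest mitochondrial genome share, left 2 called, Cs and Idh3a, where 2149 of 13800 genes were. Without ERRα-/- saline replicate 3 the count called with insulin in ERRα-/- livers went from 2 to 0 of 9 by edgeR, where 2480 of 13432 genes were called.

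**Figure D2:**
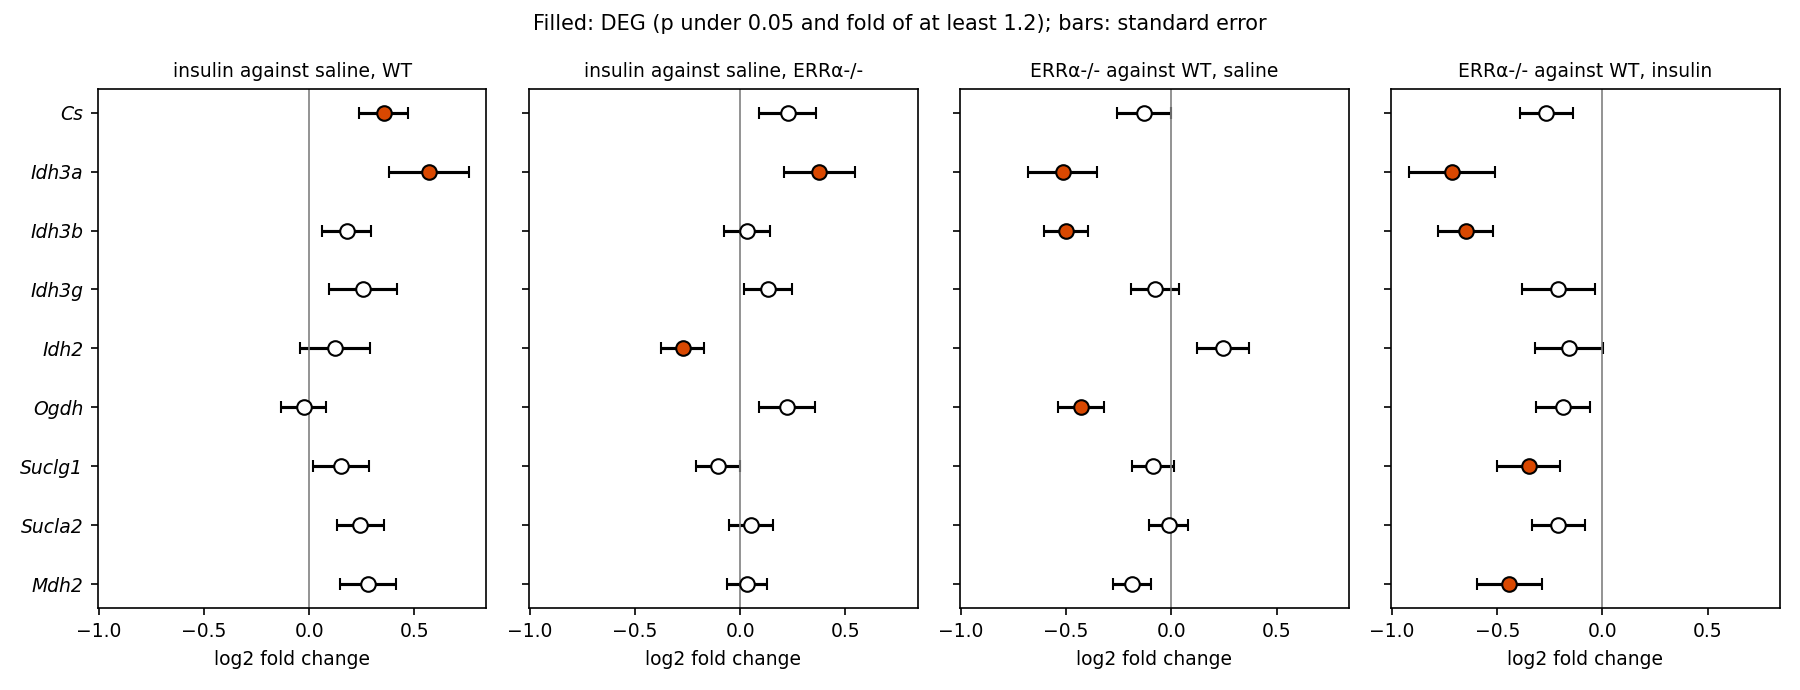
Log2 fold changes of the 9 enzyme genes in the 4 pairwise comparisons of the insulin experiment, with standard errors as bars and DEGs as filled points. The filled points lie at 0.35 and 0.57 for insulin in WT livers, and between -0.72 and -0.35 for ERRα-/- against WT livers given insulin.

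A list of 8 other genes of the cycle (Suclg2, Dlst, Dld, Sdha, Sdhb, Sdhc, Sdhd and Fh1) was read beside the enzymes. With insulin in WT livers 2 of 8 were called against 17.2% of all genes, both higher, Fh1 (0.87) and Sdhd (0.44), and the median was 0.15. In ERRα-/- livers, where 17.2% of all genes were called, Fh1 (0.52) was higher and Suclg2 (-0.28) lower, with a median of -0.0066. Without ERRα, 4 of 8 were lower in livers given saline against 5.3% of all genes, among them Sdhd (-0.45), Sdha (-0.47) and Dlst (-0.37), while Fh1, fumarate hydratase, was higher (0.65), and the median was -0.27. With insulin 5 of 8 were lower against 5.42% of all genes and 0 higher, among them Sdhd (-1.05 ± 0.18 SE, adjusted p = 0.102), Sdhc (-0.50), Dld (-0.44) and Sdhb (-0.62), with a median of -0.39. Sdhd, a membrane anchor of succinate dehydrogenase, was at 157, 234, 159 and 158 CPM in WT livers given insulin, highest in replicate 2. It ranged from 76.4 to 93.7 CPM in ERRα-/- livers given insulin. Its interaction, 0.58 ± 0.20 (SE, adjusted p = 0.473), was called, as was that of Suclg2 (0.31 ± 0.14 SE, adjusted p = 0.561), 2 of 8 against 8.79% of all genes. Of the 7 of these genes with a promoter window, Sdhd held the extended ERR element on the other strand from base 37 to base 45 after its transcription start, and Sdhb the NRF1 core. The Sdhd window is printed in the same way as those of the enzymes.
Sdhd chr9:50603800-50604099, minus strand: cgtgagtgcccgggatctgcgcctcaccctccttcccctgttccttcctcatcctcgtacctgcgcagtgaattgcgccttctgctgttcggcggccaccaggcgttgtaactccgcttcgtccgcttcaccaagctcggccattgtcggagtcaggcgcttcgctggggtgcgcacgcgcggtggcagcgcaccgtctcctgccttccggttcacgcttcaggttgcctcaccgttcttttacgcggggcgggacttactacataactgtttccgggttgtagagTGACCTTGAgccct

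Of 11 cytosolic and anaplerotic neighbours (Aco1, Idh1, Mdh1, Acly, Me1, Pcx, Glud1, Got1, Got2, Ogdhl and Csl), 9 were tested in the livers. The 4 of 9 called with insulin in WT livers stand beside 17.2% of all genes, the 2 of 9 in ERRα-/- livers beside 17.2%, the 1 of 9 without ERRα with saline beside 11.3% and the 3 of 9 with insulin beside 9.99%. With insulin in WT livers the cytosolic aspartate aminotransferase Got1 rose (1.59 ± 0.26 SE, adjusted p = 0.0106), as did the ATP-citrate lyase gene Acly (0.51), and Aco1 (-0.42) and Idh1 (-0.27) fell. In ERRα-/- livers Got1 (1.67 ± 0.36 SE, adjusted p = 0.0354) and Acly (0.54) were called higher and 0 lower. Mdh1, the cytosolic malate dehydrogenase, was lower without ERRα both with saline (-0.47) and with insulin (-0.68), where Got1 (0.41) and Pcx (0.32) were higher. With saline, Mdh1 was the only one of the 9 called. The medians of the 9 were 0.0072 and -0.040 for insulin in WT and ERRα-/- livers, and 0.0050 and 0.11 for ERRα-/- against WT with saline and with insulin. The interaction called 0 of the 9 by edgeR, with 0 at an unadjusted p under 0.05.

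The largest differences of the enzymes lay between tissues. All 9 were called higher in WT muscle than in WT liver, against 84.2% of 14886 genes called in either direction and 42.0% called higher. The 4 samples of each tissue did not overlap for any of the 9, and the share of all genes without overlap was not counted. Their median log2 fold change was 2.11, against 0.0015 for all genes. Whether same-numbered livers and muscles come from the same mouse is not given in the sources used here. Idh3a was at 31.7, 27.7, 36.7 and 30.5 CPM in WT livers and 593, 664, 621 and 636 CPM in WT muscles, 20.3-fold higher, a log2 fold change of 4.34 ± 0.095 (SE, adjusted p = 1.53e-14). Ogdh went from 192, 202, 220.2 and 204 CPM in liver to 958, 987, 945 and 1002 CPM in muscle, a log2 fold change of 2.28 ± 0.071 (SE, adjusted p = 6.71e-13). Idh3g had 64.6, 63.8, 61.4 and 59.2 CPM in liver and 278, 302, 287 and 291 CPM in muscle, 4.75-fold higher. These 3 genes stood highest in tissue difference among the 9.

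Cs was at 206, 186, 194 and 208 CPM in WT livers and 849, 917, 843 and 861 CPM in WT muscles, 4.47-fold higher. Idh2 was at 92.7, 82.7, 92.2 and 75.5 CPM in livers and 392, 384, 328 and 344 CPM in muscles, 4.32-fold higher. Mdh2 was at 186, 174, 181 and 181 CPM in livers and 651, 671, 608 and 638 CPM in muscles, 3.64-fold higher. The pair of succinate-CoA ligase subunits and Idh3b were nearer between tissues. Sucla2 was at 189, 166, 172 and 177.02 CPM in livers and 539.7, 573, 536 and 547 CPM in muscles, 3.19-fold higher. Idh3b was at 200.04, 179, 186 and 181 CPM in livers and 404, 429, 393 and 416 CPM in muscles, 2.25-fold higher. Suclg1 was at 202 ± 8.07 CPM (mean and SD, n = 4) in livers and 261 ± 16.6 CPM in muscles. Its difference was the smallest of the 9, 1.32-fold or 0.40 ± 0.067 (SE, adjusted p = 6.34e-05).

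Among the other TCA cycle genes 5 of 8 were higher and 2 lower in muscle, where 84.2% of all genes were called, with a median of 0.33. Dld (1.02), Sdhb (0.56) and Dlst (0.35) were higher and Suclg2 (-1.93) lower, the 4 with the smallest p. Of the neighbours, 7 of 10 tested were lower in muscle and 1 higher, with a median of -1.46. Of all 14886 genes, 6288 were called lower and 6246 higher. The 4 with the smallest p were Idh1 (-4.63), Aco1 (-3.71), Glud1 (-3.32) and Acly (-4.44), all lower in muscle.

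**Figure D3:**
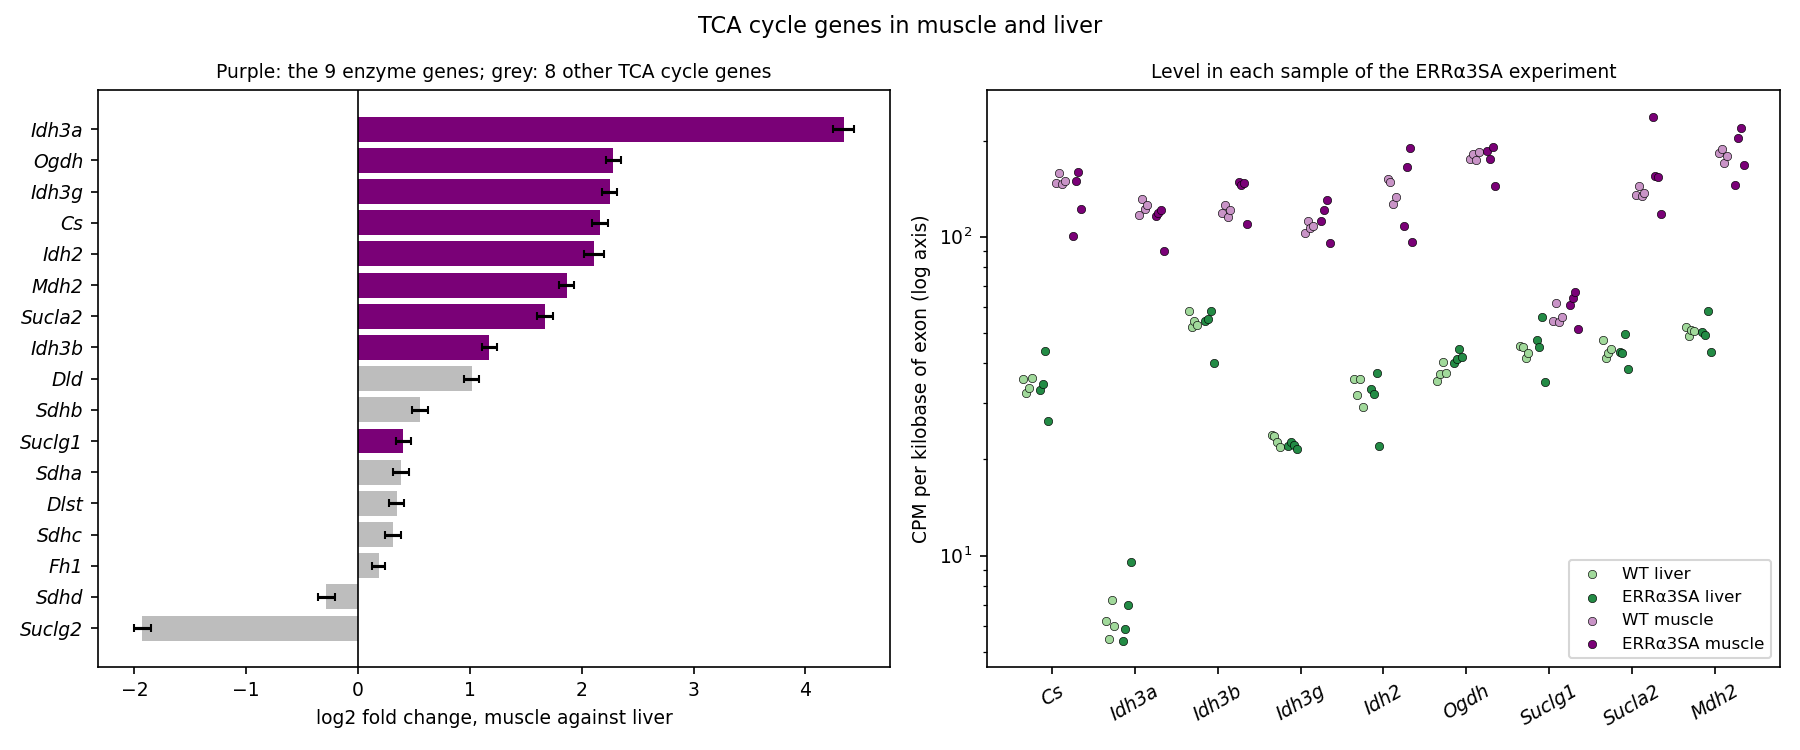
The left panel gives log2 fold changes of muscle against liver in WT littermates (n = 4 each, standard errors as whiskers), from 4.34 for Idh3a to -1.93 for Suclg2, with the 9 enzymes in purple and 8 other TCA cycle genes in grey. The right panel gives the level of each enzyme per kilobase of exon in each of the 16 samples (CPM per kilobase, log axis).

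Divided by the length of their joined exons, levels can be compared between genes. In WT livers given saline, Ogdh led with 58.2 ± 2.53 CPM per kilobase (SD, n = 4), followed by Mdh2 (35.6 ± 0.770), Sucla2 (32.2 ± 1.19), Idh3b (28.9 ± 1.91), Suclg1 (28.6 ± 2.59), Idh2 (18.2 ± 2.86), Cs (17.6 ± 1.24), Idh3g (12.5 ± 1.15) and Idh3a (6.20 ± 0.690). The ranges of Sucla2 and Idh3b, Idh3b and Suclg1, and Idh2 and Cs overlapped. In WT livers of the ERRα3SA experiment, normalised separately, Idh3b led with 54.5 ± 2.79 CPM per kilobase, its range overlapping that of Mdh2 (50.6 ± 1.43), and Idh3a was again last with 6.24 ± 0.742. Between them came Sucla2 (44.1 ± 2.46) and Suclg1 (43.7 ± 1.75), which overlapped, then Ogdh (37.5 ± 2.16), Cs (34.3 ± 1.76) and Idh2 (33.1 ± 3.19), each overlapping the next, and Idh3g (23.0 ± 0.903).

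In WT muscle the order was Mdh2 (180.2 ± 7.44 CPM per kilobase) and Ogdh (178 ± 4.72), which overlapped, then Cs (150.1 ± 5.85), Idh2 (139.9 ± 12.0) and Sucla2 (138 ± 4.22), each overlapping the next, then Idh3a (124 ± 5.80) and Idh3b (120.0 ± 4.44), which overlapped, then Idh3g (107 ± 3.69) and Suclg1 (56.6 ± 3.59). The order depends on the length used. With the longest annotated transcript Mdh2 was highest in all 8 groups, Idh3a lowest in all 6 liver groups and Suclg1 lowest in both muscle groups.

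The balance of subunits differed with tissue, as ratios of levels per kilobase show without a test. The catalytic Idh3a was 0.115 ± 0.0131 (SD, n = 4) of Idh3b in WT livers of the ERRα3SA experiment and 1.03 ± 0.0313 in WT muscle. Taken with the longest transcript, the ratio was 0.135 in liver and 1.22 in muscle. The beta subunit ratio Sucla2 over Suclg2 was 0.666 ± 0.0448 in liver and 8.09 ± 0.320 in muscle, and 0.868 and 10.5 with the longest transcript. Idh2 over its cytosolic counterpart Idh1 was 0.154 ± 0.0154 in liver and 16.4 ± 1.54 in muscle, and 0.185 and 19.7 with the longest transcript. Levels of the insulin experiment, normalised separately, gave 0.216 ± 0.0340 for Idh3a over Idh3b, 1.07 ± 0.0843 for Sucla2 over Suclg2 and 0.178 ± 0.0328 for Idh2 over Idh1 in WT livers given saline. The ratio of Idh3a over Idh3b ranged from 0.990 to 1.06 in WT muscle and from 0.780 to 0.827 in ERRα3SA muscle. These ranges do not overlap, a contrast picked after its values were seen.

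In livers of ERRα3SA mice, 0 of the 9 enzymes were DEGs by edgeR or by DESeq2, against 4.88% of 13339 genes, and 1 had an unadjusted p under 0.05 in each tool. Their median log2 fold change was -0.0061 (all genes -0.00039). Ogdh came nearest, with 192, 202, 220.2 and 204 CPM in WT and 219, 225, 243 and 228 CPM in ERRα3SA livers. Only ERRα3SA replicate 1, at 219 CPM, lay below the highest WT liver. The log2 fold change of Ogdh was 0.16 ± 0.072 (SE, adjusted p = 0.657), a 1.12-fold difference. The ERRα3SA livers spread widely, Cs at 190.2, 200.02, 252 and 152 CPM and Idh3a at 27.4, 29.8, 35.4 and 48.6 CPM. Replicate 4, with the lowest hepatocyte marker sum, had the lowest Cs, Idh2, Idh3b, Idh3g, Suclg1, Sucla2 and Mdh2 of its group and the highest Idh3a. Without it 0 of 9 were called by edgeR, where 892 of 13514 genes were. The median of the 9 was then 0.048, with 7 of 9 above 0. Of the other TCA cycle genes 0 of 8 were called by edgeR, with 0 at an unadjusted p under 0.05 and a median of -0.028, and of the neighbours 1 of 9 tested was called, Got1 (-0.68), with a median of 0.0040.

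In ERRα3SA muscle, 0 of the 9 were DEGs by edgeR or by DESeq2, against 4.54% of 14081 genes, and 0 had an unadjusted p under 0.05 in either. The median log2 fold change was 0.054 (all genes 0.023), and it was 0.13 without replicate 1, 0.16 without replicate 4 and 0.23 without both. Cs was at 579, 863, 920.1 and 706 CPM, Mdh2 at 517, 723, 778 and 598 CPM and Idh2 at 279.6, 427, 489.9 and 249 CPM in ERRα3SA muscles. Replicates 2 and 3 were the highest for all 3 genes, and replicates 1 and 4 the lowest. Sucla2 was at 948, 619, 612 and 468 CPM, with replicates 1, 2 and 3 above all WT muscles, replicate 1 highest, and replicate 4 below them. Its log2 fold change was 0.29 ± 0.19 (SE, adjusted p = 1.00). With 1 sample left out, the Sucla2 value ranged from 0.077 to 0.43. Idh3b was at 507, 496, 504 and 374 CPM, with replicates 1, 2 and 3 above all WT muscles and replicate 4 below them, and its log2 fold change was 0.22 ± 0.12 (SE, adjusted p = 1.00).

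Without ERRα3SA muscle replicate 1, the library with the high mitochondrial genome share, 0 of 9 were called by edgeR, where 2506 of 14363 genes were, with Idh3b at 0.19 ± 0.094 (SE, adjusted p = 0.253). When replicate 4, the library with high macrophage and collagen transcripts, was left out, 2 of 9 were called, where 673 of 14235 genes were, both higher, Sucla2 (0.43 ± 0.17 SE, adjusted p = 0.948) and Idh3b (0.31 ± 0.093 SE, adjusted p = 0.782). With both left out, a choice made after seeing the data that leaves 2 ERRα3SA muscles, 2 of 9 were called, Idh3b (0.30 ± 0.060 SE, adjusted p = 0.00658) and Idh2 (0.36 ± 0.081 SE, adjusted p = 0.0131), and 5 of 9 had an adjusted p under 0.05. Of all 14586 genes, that fit called 2597 and gave 1505 an adjusted p under 0.05. The ERRα3SA by tissue interaction made 0 of 9 a DEG by edgeR or by DESeq2, with 0 at an unadjusted p under 0.05 in either, against 5.57% of 15688 genes. Its median was 0.036 (all genes 0.0035), or -0.029 without ERRα3SA liver replicate 4, 0.057 without ERRα3SA muscle replicate 1 and 0.12 without ERRα3SA muscle replicate 4. Its value for Idh3a was -0.31 ± 0.23 (SE, adjusted p = 0.996) and for Sucla2 0.28 ± 0.23 (SE, adjusted p = 0.999). With 1 sample left out, these values ranged from -0.41 to -0.096 for Idh3a and from 0.057 to 0.43 for Sucla2. Without ERRα3SA muscle replicate 4 the interaction called Sucla2 (0.43) and Idh3b (0.37), where 941 of 15924 genes were called. In muscle the other TCA cycle genes had a median of 0.22 with 0 of 8 called by edgeR and 1 at an unadjusted p under 0.05, where 4.54% of all genes were called. Of the neighbours 2 of 10 tested were called, Acly lower (-0.40) and Got1 higher (0.29), with a median of -0.14 and 6 of 10 below 0.

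**Figure D4:**
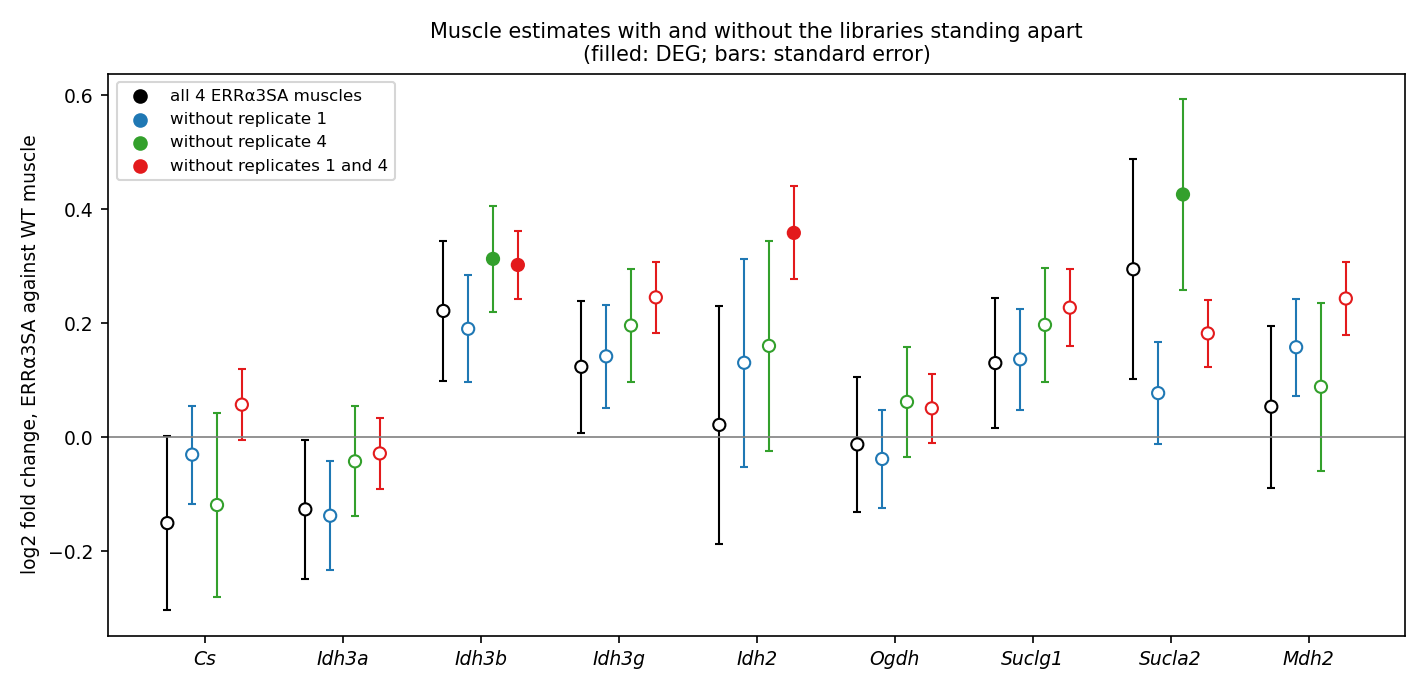
Log2 fold changes of the 9 enzyme genes in ERRα3SA against WT muscle (standard errors as bars, DEGs filled) with all 4 ERRα3SA muscles, without replicate 1, without replicate 4 and without both. Idh3b lies at 0.22 with all 4 and at 0.19, 0.31 and 0.30 in the other fits.

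Across the 15 livers of the insulin experiment, the 36 pairs of enzymes had a median Pearson r of 0.520 over log2 CPM, from -0.34 for Idh2 with Ogdh to 0.83 for Idh3b with Mdh2. With group means subtracted the median was 0.218. In the 8 livers and the 8 muscles of the ERRα3SA experiment it was 0.374 and 0.552. Among the genes most like the mean of the 9 over the 15 livers, out of 13298, were Phb (r = 0.951), Atp5b (0.940), Cyc1 (0.937) and Mul1 (0.933). Cyc1 encodes a subunit of complex III and Atp5b one of ATP synthase, while Phb encodes a prohibitin of the inner mitochondrial membrane. Over the 8 livers of the ERRα3SA experiment, r was 0.896 for Phb, 0.862 for Atp5b, 0.751 for Cyc1 and 0.700 for Mul1. Over its 8 muscles the values were 0.402, 0.807, 0.166 and 0.186 in the same order. These correlations are descriptions over samples that share groups and libraries. By Spearman's rho Phb, Atp5b and Mul1 were among the first 5 genes, and with group means subtracted none of these 4 was.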

How the data were processed

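The gene counts were used as deposited by the authors, whose processing notes name STAR for the alignment and mm10 as the genome. The strand setting and the annotation release are not given in the sources used here. RNA was extracted as total RNA with RNeasy kits, libraries were made with the NEBNext Ultra RNA kit, and paired-end Illumina reads were sequenced. Symbols were taken from GENCODE vM21. Tests used edgeR 4.0.16 (quasi-likelihood, TMM, filterByExpr) in R 4.3.3 over the groups of each comparison, with Benjamini-Hochberg adjusted p-values over all genes tested, and interactions used all groups of an experiment. Calls needed a difference of 1.2-fold or more with an unadjusted p under 0.05. The 9 enzymes are all named, and of other lists at most 4 called genes, those with the smallest p. Results for some genes that meet these rules are not reported. The enzymes and lists were chosen with earlier results of these data known. Alternatives were DESeq2 1.42.0, RLE size factors, total counts only, mitochondrial genome genes left out, no filter on low counts, all groups in one fit, a replicate block, each sample left out, the longest transcript as length, Spearman's rho or group means subtracted for likeness, and calls by adjusted p. Fits without the libraries that stood apart were added after seeing the data. Promoters came from RefSeq on GRCm38.p6. The closest pair of replicates had a chi-square per degree of freedom of 6.30, and no samples were merged. The scripts were tested on simulated counts.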

Additional observations from a re-analysis of the deposited data

Results flagged for a closer look

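Of 112 groups of 4 samples tested for a sample apart from the other 3, 12 had one, where chance gives about 1 in 20. Idh3b was at 374 CPM in ERRα3SA muscle replicate 4 and at 496 to 507 CPM in the other 3. Sucla2 was at 121 CPM in the saline-treated WT liver replicate 3 and at 130.1 to 131 CPM in the others. Esrra was at 96.5 CPM in the insulin-treated WT liver replicate 2 and at 53.7 to 59.0 CPM in the others. The share of counts from the mitochondrial genome was 3.91% in the saline-treated ERRα-/- liver replicate 3 (others 3.16 to 3.21%), 1.88% in the insulin-treated WT liver replicate 2 (others 3.88 to 4.17%) and 19.3% in ERRα3SA muscle replicate 1 (others 9.15 to 9.85%). Muscle fibre markers summed to 69.8 CPM in the insulin-treated WT liver replicate 3 (others 0.830 to 3.21 CPM), to 10.9 CPM in the WT littermate liver replicate 1 (others 0.555 to 1.29 CPM) and to 10.1 CPM in the ERRα3SA liver replicate 3 (others 0.818 to 1.13 CPM). Slow fibre markers summed to 4.64 CPM in the insulin-treated WT liver replicate 3 (others 0.546 to 1.06 CPM). Macrophage markers summed to 38.8 CPM in ERRα3SA muscle replicate 4 (others 6.71 to 6.96 CPM). Stellate cell and fibroblast markers summed to 237 CPM in the ERRα3SA liver replicate 2 (others 252 to 254 CPM).

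The genotype by insulin interaction called Sdhd (0.58 on the log2 scale, adjusted p = 0.473), Esrra (1.65, adjusted p = 0.422) and Suclg2 (0.31, adjusted p = 0.561) by edgeR. Esrra is the gene that ERRα-/- mice lack, and its residual level in their livers was 0.298 to 1.63 CPM. Its interaction is therefore not read as a difference in the response to insulin. The ERRα3SA by tissue interaction called Got1 (0.94, adjusted p = 0.656).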

How the results depend on the processing

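Groups hold 3 or 4 mice, levels are those of whole tissue, and the cause of any difference between fits was not tested. Of 1341 log2 fold changes of the 9 enzymes under other settings, 0 turned from called one way to called the other, 21 lost their call, 21 gained one, and 47 that were not called changed sign. Cs and Idh3a with insulin in WT livers, Idh3a, Idh3b and Ogdh without ERRα with saline, Idh3a and Idh3b without ERRα with insulin, and all 9 in muscle against liver were called in all 7 other fits and with each sample left out.

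By adjusted p under 0.05, 0 of the 9 were called in edgeR with insulin in WT livers (2 by the DEG criterion), with insulin in ERRα-/- livers (2), without ERRα with saline (3) and without ERRα with insulin (4). With insulin in ERRα-/- livers, total counts only gave 1, all groups in one fit 0 and the replicate block 0. Without ERRα with insulin, total counts only gave 7. With 1 sample left out, the count ranged from 2 to 5 with insulin in WT livers, 0 to 3 with insulin in ERRα-/- livers, 3 to 4 without ERRα with saline, 2 to 5 without ERRα with insulin, 0 to 1 for the genotype by insulin interaction, 0 to 2 in ERRα3SA muscle and 0 to 2 for the ERRα3SA by tissue interaction, and stayed at 0 in ERRα3SA liver and 9 in muscle against liver. These fits tested 13391 to 16044 genes. In the same order, they called 1796 to 2511, 1729 to 2480, 1284 to 1984, 818 to 1778, 886 to 1569, 378 to 2506, 710 to 2766, 507 to 892 and 12609 to 12772 of all genes. Added after seeing the data, ERRα3SA muscle without both muscles that stood apart gave 2, the ERRα3SA by tissue interaction without these and ERRα3SA liver replicate 4 gave 1, and the genotype by insulin interaction without the livers that stood apart gave 0. In the same order, these added fits called 2597 of 14586, 2804 of 16269 and 1278 of 14476 genes.

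The replicate block gave 2 with insulin in WT livers, 3 without ERRα with saline, 3 without ERRα with insulin, 9 in muscle against liver and 0 elsewhere. No comparison of groups had a correlation over 0.1 in every same-numbered pair. The correlations ran from -0.042 to 0.22 between WT saline and insulin livers (2 of 4 samples nearest their own number), -0.033 to 0.011 between those of ERRα-/- mice (0 of 3), -0.082 to 0.12 between WT and ERRα-/- livers with saline (3 of 4), -0.023 to 0.075 with insulin (2 of 3), -0.049 to 0.24 between WT and ERRα3SA livers (1 of 4), -0.18 to 0.038 between their muscles (1 of 4), 0.020 to 0.041 between WT livers and muscles (3 of 4) and -0.088 to 0.084 between those of ERRα3SA mice (2 of 4).

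Calls over all genes split into 1102 higher and 1251 lower with insulin in ERRα-/- livers (766 and 1629 with total counts only), 624 and 741 without ERRα with insulin (295 and 1195), 697 and 592 for the genotype by insulin interaction (897 and 311), 392 and 247 in ERRα3SA muscle (188 and 373) and 496 and 378 for the ERRα3SA by tissue interaction (358 and 481). With total counts only, the median of all genes was 0.14 in muscle against liver, 0.0015 with TMM. ERRα3SA muscle called 639 genes, 2506 without replicate 1, 1071 without the filter, 1013 with all groups in one fit and 334 with the block. The ERRα3SA by tissue interaction called 874 genes, 2766 without ERRα3SA muscle replicate 1. ERRα3SA liver called 651, 1050.0 without the filter. Without ERRα with insulin 1365 were called, 818 without ERRα-/- replicate 2. By adjusted p, DESeq2 called 893 genes (edgeR 425) with insulin in WT livers, 956 (398) with insulin in ERRα-/- livers, 214 (11) without ERRα with saline, 228 (8) without ERRα with insulin, 20 (0) for the genotype by insulin interaction, 36 (0) in ERRα3SA liver, 41 (0) in ERRα3SA muscle and 23 (0) for the ERRα3SA by tissue interaction. With 1 sample left out, the edgeR counts by adjusted p ranged from 105 to 409, 42 to 608, 2 to 47 and 3 to 48 in the first 4 of these, 0 to 464 in ERRα3SA muscle and 0 to 369 for the ERRα3SA by tissue interaction. All groups in one fit gave 766 with insulin in WT livers, 262 with insulin in ERRα-/- livers and 96 without ERRα with insulin. No filter gave 640.0 with insulin in ERRα-/- livers, 30 without ERRα with saline and 31 without ERRα with insulin, where total counts only gave 16.

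All 72 levels per kilobase moved by over 1 SD with the longest transcript, and the order of the 9 changed in all 8 groups.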

Other observations

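Markers of other cells were read in the same samples. With insulin in WT livers, the stellate cell gene Lrat fell by 0.88 on the log2 scale (adjusted p = 0.0339) and Col3a1 by 0.68, 2 of 5 stellate cell and fibroblast markers, against 17.2% of all genes. Dcn (0.21) was the only one of the 5 above 0, and their median was -0.54. Cidec, a lipid droplet gene among the adipocyte markers, rose by 1.54 (adjusted p = 0.0466), the only one called of 2 tested. The endothelial gene Kdr fell by 0.60, the only one called of 5, while 3 of the 5 were above 0 and their median was 0.13. Acta1, 1 of 2 muscle fibre markers tested, was called at 5.15 and Tnnt1, the only slow fibre marker tested, at 1.46. In WT livers given insulin, replicate 3 had the highest sum of both lists. Acta1 was at 30.4 CPM in that liver and at most 0.877 CPM in the other WT livers given insulin. In ERRα-/- livers insulin was followed by higher Cps1 (0.74) and Hba-a2 (0.90), 1 of 5 hepatocyte and 1 of 5 erythroid markers, against 17.2% of all genes.

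Without ERRα, the macrophage genes Adgre1 (-0.76) and Vsig4 (-0.39) were lower in livers given saline, 2 of 5, as were Kdr (-0.43), Col1a1 (-0.74) and the erythroid gene Alas2 (-0.67), each 1 of 5, against 11.3% of all genes called in either direction and 5.3% called lower. The medians of their lists were -0.017 for endothelium, with 2 of 5 above 0, -0.24 for stellate cells and fibroblasts, with 1 above 0, and -0.41 for erythroid cells, with 0 above 0. In livers given insulin, the urea cycle gene Cps1 (0.95 ± 0.15 SE, adjusted p = 0.0739) and Serpina1c (0.41) were higher, 2 of 5 hepatocyte markers, against 9.99% of all genes. The 5 summed to 95686 to 102764 CPM in ERRα-/- and 77472 to 85833 CPM in WT livers given insulin, with no overlap, and 4 of the 5 were above 0. Marco (1.05) was higher as well, the only one called of 5 macrophage markers, whose median over the 5 was -0.053. With insulin, Marco was at 4.45, 6.50 and 16.7 CPM in ERRα-/- livers and at 3.65 to 5.05 CPM in WT livers, groups that overlap. The muscle fibre markers Mylpf (-2.19) and Myh4 (-4.75) were lower, 2 of 4 tested, with a median of -2.73, and both were highest in WT insulin replicate 3, the liver that stands apart in these markers, with Myh4 at 19.3 CPM there and at most 1.09 CPM in the other 3 WT livers given insulin. In ERRα3SA livers the cholangiocyte genes Krt19 (-1.14), Epcam (-0.93) and Krt7 (-1.11) were lower, 3 of 5, against 4.88% of all genes, and Sox9 (0.38) was the only one above 0. The 3 were at most at 2.79 CPM in any liver, and the list sums overlapped, at 42.1 to 50.2 CPM in WT and 31.7 to 59.8 CPM in ERRα3SA livers. Vsig4 (0.29), Lrat (0.33) and the endothelial gene Lyve1 (0.44) were higher, each 1 of 5. Of the stellate cell and fibroblast markers 2 of 5 were below 0, with a median of 0.0066, and all 5 macrophage and all 5 endothelial markers were above 0. In ERRα3SA muscle the slow fibre gene Tnni1 was lower (-0.50), 1 of 5, against 4.54% of all genes, where 2 of 5 were above 0 and the median was -0.0055.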
